A study of Mus musculus with 10 samples.

Results

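The skeletal muscle contractile genes are the genes of the sarcomere, the contractile unit of striated muscle, and of the calcium stores and energy enzymes that serve it. A list of 44 such genes was read from a table of 56750 features, and all 44 were found and tested. The list was split by the stage or fibre type in which each product is mainly used, into 5 embryonic, 9 slow, 13 fast, 11 shared sarcomere and 6 calcium and energy genes. They were compared between 2 mouse sarcoma models by bulk RNA-seq of whole tumors. The dFLEx group held 3 tumors (170019, 170024 and 170025; genotype dFLEx CDS +/-), which carry a CIC::DUX4 fusion transgene in the Rosa26 locus under the CAG promoter, expressed once both Cre and FLP recombinase have acted. Per the study's methods, these tumors were raised by electroporation of plasmids for both enzymes (pCAG-Cre, pCAG-FLPE) in the gastrocnemius, a calf muscle, of mice aged 6 to 12 weeks, so the tumor site was itself skeletal muscle. The KP group held 2 tumors (3800 and 3802; genotype KRASloxP-STOP-loxP-G12D; p53fl/fl), and the site and age of induction of the KP tumors are not given in the sources used here. Both genotypes rest on conditional alleles opened by recombinase, each tumor number in the labels was taken as 1 tumor of 1 animal, and no tumor-free muscle was analysed here.

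Skeletal muscle is built from families of near-interchangeable proteins, each encoded by several genes that replace each other during development and between fibre types. A forming or regenerating fibre first uses embryonic and neonatal myosin heavy chains (Myh3, Myh8), the embryonic light chain Myl4, the cardiac actin Actc1 and the cardiac troponin T Tnnt2, and then exchanges them for adult slow or fast isoforms. The gastrocnemius of the mouse is made mainly of fast fibres, which hold the myosins Myh1, Myh2 and Myh4, the fast troponins, and the calcium buffer parvalbumin. In a bulk sample fewer cells of a type and less RNA per cell cannot be told apart, and host muscle and tumor cells cannot be told apart either.

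As reference for the adult and developmental members of the 2 families described first, the myosin heavy chains and the striated actins, the 250 bases before the RefSeq start (promoter table of build GRCm38.p6) are shown 5′ to 3′ for Myh4 and Acta1, which were higher in dFLEx tumors, and for Myh3 and Actc1, which were lower. Each was matched without mismatch to a single place on its chromosome in GRCm39: chr11:67128388-67128637 on the plus strand for Myh4, chr11:66968876-66969125 on the plus strand for Myh3, chr8:124621515-124621764 on the minus strand for Acta1 and chr2:113883357-113883606 on the minus strand for Actc1. The RefSeq start is not always the start of the gene as counted. The Actc1 window lies inside the counted gene (chr2:113877763-113884029), and the Myh4 window ends short of the counted start (chr11:67128855). Capitals mark matches, on either strand, to CAGCTG (an E-box of the kind bound by myogenic factors), to TATAAA, to the MEF2 site and to the CArG box.
Myh4: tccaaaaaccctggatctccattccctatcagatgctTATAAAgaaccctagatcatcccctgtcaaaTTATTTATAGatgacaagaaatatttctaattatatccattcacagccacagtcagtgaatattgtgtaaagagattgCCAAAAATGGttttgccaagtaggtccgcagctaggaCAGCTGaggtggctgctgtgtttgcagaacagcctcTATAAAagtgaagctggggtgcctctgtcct
Myh3: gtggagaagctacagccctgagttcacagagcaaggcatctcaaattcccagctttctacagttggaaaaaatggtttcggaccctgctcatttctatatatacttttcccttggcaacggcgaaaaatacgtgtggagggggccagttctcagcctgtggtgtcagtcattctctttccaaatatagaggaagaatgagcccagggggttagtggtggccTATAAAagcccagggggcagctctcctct
Acta1: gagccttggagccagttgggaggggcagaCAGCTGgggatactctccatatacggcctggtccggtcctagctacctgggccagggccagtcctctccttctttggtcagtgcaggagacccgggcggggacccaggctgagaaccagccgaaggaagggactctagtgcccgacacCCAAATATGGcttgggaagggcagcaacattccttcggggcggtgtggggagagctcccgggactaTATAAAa
Actc1: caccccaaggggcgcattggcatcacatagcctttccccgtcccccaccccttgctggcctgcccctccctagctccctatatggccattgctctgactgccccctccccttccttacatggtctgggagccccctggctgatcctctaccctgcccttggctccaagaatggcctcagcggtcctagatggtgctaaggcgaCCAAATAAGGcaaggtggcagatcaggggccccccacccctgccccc

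Myh4 held matches to all 4 motifs, and its MEF2 match overlaps the second of its TATAAA matches. Acta1 held the E-box, the TATA match and a CArG box, Actc1 a CArG box, and Myh3 the TATA match. Of the 44 genes, 35 had an entry in the promoter table (Actn3, Atp2a2, Myot, Myoz1, Neb, Tcap, Tnni2, Tnnt3 and Xirp1 had none). CAGCTG was present before 15 of the 35 genes (42.9%) and in 13% of all 32841 windows of this length, the MEF2 site before 6 (17.1%, against 2.92%), the CArG box before 5 (14.3%, against 1.47%) and TATAAA before 8 (22.9%, against 12.4%). The 35 were counted per gene and the background per window, so a gene with several windows had more chances of a match. These are matches of letters, and no binding was measured.

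Library totals ran from 20503474 to 46302223 counts, and the libraries of a tumor were summed. The fusion transcript, which checks the labels, was counted at 105, 202 and 423 CPM (counts divided by library size, so that libraries can be compared) in the dFLEx tumors and at 0 and 0.24 CPM in the KP tumors. Duplicate libraries of a tumor differed by a median of 0.051 to 0.147 on the log2 scale over the 44 genes, and tumors of the same group by 1.06 to 1.77. Tumors of 1 genotype were therefore much less alike than duplicates of 1 RNA. The tumor was used as the unit of replication, and p-values measure the spread between these tumors.

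Contractile genes took 1.68%, 6.30% and 1.83% of all counts in dFLEx 170019, 170024 and 170025, and 0.675% and 1.42% in KP 3800 and 3802. The Wilson 95% intervals of these shares do not touch (the widest ran from 6.299% to 6.311%, in dFLEx 170024). They cover counting error only and not the spread between tumors. Mates of a pair were counted as separate reads, so the intervals are too narrow even for counting error. The genes did not move as 1 block. Levels of the fast, the shared sarcomere and the calcium and energy genes were each higher in dFLEx tumors by the sign of the log2 fold change (dFLEx against KP throughout), apart from Ttn, whose sign turned when libraries were scaled by their totals in place of TMM. Their class medians were 2.7, 1.56 and 2.51. The embryonic genes had a median of -2.41, with 4 of 5 lower, and the 9 slow genes a median of -0.43, with 4 higher and 5 lower. Over all 44 the median was 2.22, beside -0.18 over all 24743 genes tested. With libraries scaled by their totals the median over all genes was -0.47 and that over the 44 was 1.93.

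None of the 44 differences passed an adjusted p of 0.05 in edgeR's quasi-likelihood test over tumors, where adjusted p-values ran from 0.16 to 0.984. In that fit 0.182% of all genes passed. At an unadjusted p under 0.05 there were 20 higher and 4 lower contractile genes, where the background over all genes was 5.65% and 4.93%. In 21 genes every dFLEx tumor lay above every KP tumor (13.7% of all genes), in 3 every dFLEx tumor lay below (11.7%), and in 20 the groups overlapped. The 21 were 8 of 13 fast, 6 of 11 shared sarcomere, all 6 calcium and energy genes and 1 of 9 slow genes, and the 3 were embryonic. Separation was read on tumor sums scaled by TMM throughout. Under library totals the groups overlapped for Myh4, Mylpf, Actn2, Ryr1 and Eno3. Ryr1, for example, took 2465 of 47462244 counts in dFLEx 170019 and 4375 of 70120584 in KP 3800. With TMM set per library, Mylpf in dFLEx 170025 (913 and 935 CPM) lay below KP 3802 (1002 CPM). With DESeq2 on the same tumor sums 12 contractile genes were called higher and 2 lower (3.55% and 2.7% of all genes). With the libraries treated as independent samples, so that duplicates of 1 RNA count as 2 tumors would, edgeR called 15 higher and 4 lower (8.24% and 8.88% of all genes). In either direction, 13 were called with the duplicate number as a replicate block on those libraries (12.7% of all genes) and 11 with no filter on low counts (1.98%).

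**Figure D1:**
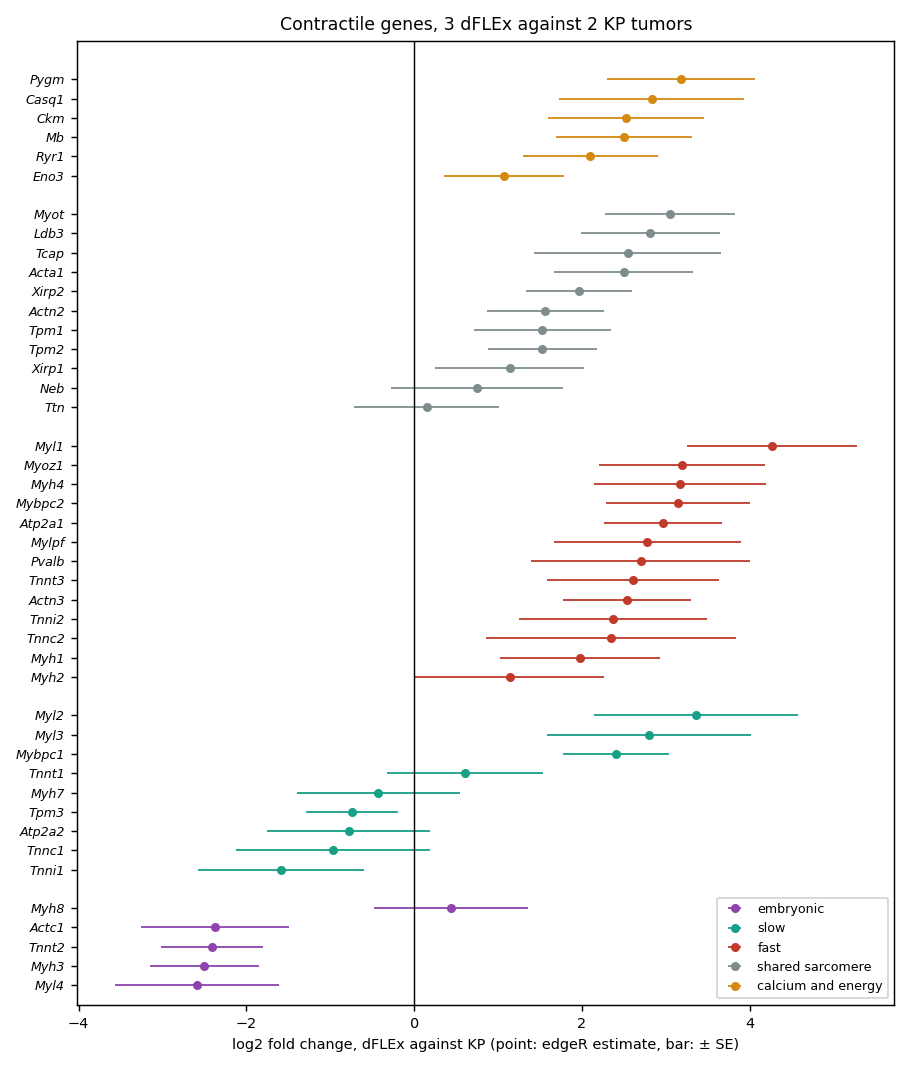
The log2 fold change of each of the 44 contractile genes (x axis, dFLEx against KP; points are edgeR estimates and bars ± SE) is shown by class, each class ordered by fold change. All fast, shared sarcomere, and calcium and energy genes lie right of 0 (Ttn lies left of it under library totals), 4 of 5 embryonic genes lie between -2.59 and -2.37, and the slow genes spread from -1.59 to 3.36.

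**Figure D2:**
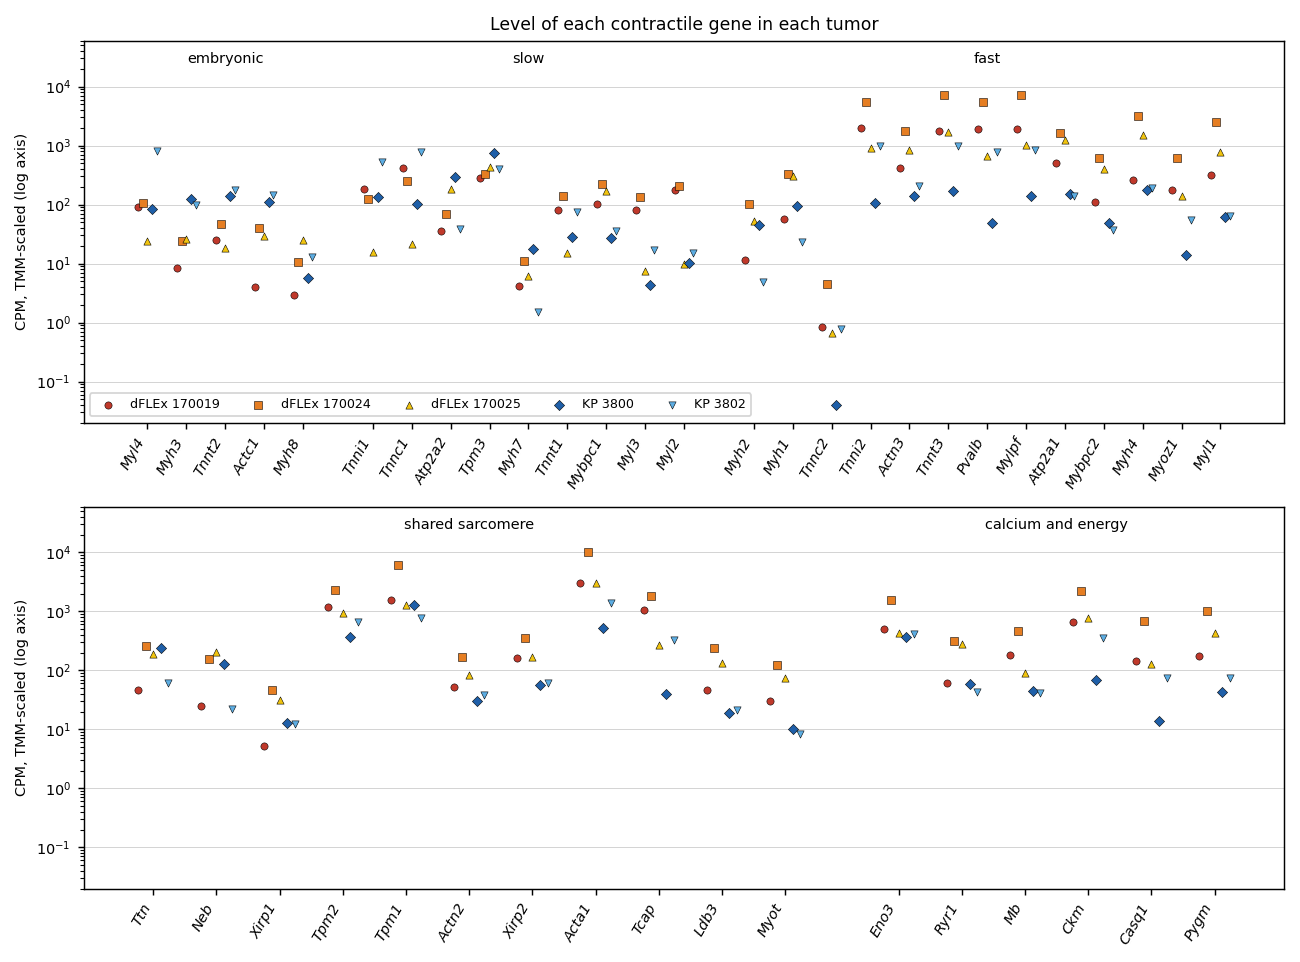
Each point is the level of 1 gene in 1 tumor, in CPM scaled by TMM on a log axis; colours and shapes mark the 3 dFLEx and 2 KP tumors. The dFLEx 170024 symbols stand highest for all 13 fast genes, and KP symbols stand above all dFLEx symbols for Myh3, Tnnt2 and Actc1.

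Myosin heavy chain is the motor of the thick filament, and here the embryonic and the fast motors went opposite ways. Embryonic Myh3 (chr11:66969126-66993117, GRCm39) was counted at 8.46, 24.0 and 26.2 CPM in dFLEx 170019, 170024 and 170025, against 124 and 97.4 CPM in KP 3800 and 3802, with a log2 fold change of -2.50 (adjusted p = 0.197, SE 0.65) in edgeR. Both KP tumors stood above all dFLEx tumors, by 5.66 times between the means. Myh4, the motor of the fastest fibres (chr11:67128855-67151272), was counted at 264, 3213 and 1489 CPM in dFLEx 170019, 170024 and 170025, against 179 and 189 CPM in KP 3800 and 3802, a log2 fold change of 3.17 (adjusted p = 0.297, SE 1.02) in edgeR. The KP tumors were near each other, and dFLEx 170019 was far closer to them than to 170024.

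The other motors overlapped between the groups. Fast Myh1 was at 58.0, 331 and 306 CPM against 94.8 and 23.1 CPM (in the same order of tumors), a log2 fold change of 1.97 (adjusted p = 0.556, SE 0.95) in edgeR. Myh2, of the oxidative fast fibres, was at 11.7, 102 and 52.9 CPM against 45.5 and 4.84 CPM, a log2 fold change of 1.14 (adjusted p = 0.874, SE 1.12) in edgeR. For both genes KP 3800 lay within the dFLEx range. Slow Myh7 was low in every tumor, at 4.13, 11.1 and 6.11 CPM against 17.6 and 1.503 CPM. Neonatal Myh8 was low likewise, at 2.91, 10.5 and 25.0 CPM against 5.70 and 13.2 CPM. Their log2 fold changes, -0.43 and 0.44, were each smaller than 1 SE. Myh1, Myh2, Myh3, Myh4 and Myh8 are similar in sequence, and reads with several alignments were not counted, so the division among them is uncertain.

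A share within a family does not depend on how libraries were scaled. Levels per kilobase divide by the exonic length of the deposited data, which covers all annotated exons of a gene. That length can exceed the transcript present in a tumor. The shares therefore serve to compare tumors and are not shares of molecules, and for some isoforms differences without the division are given near the end. Isoforms of a family can differ much in this annotated length (Tnnt2 7752 and Tnnt3 1583 bases). A trend with length that differs between tumors, given below, therefore also enters the shares, and its part in them was not tested. Myh4 made up 77.3, 88.0 and 79.8% against 40.2 and 59.1% of the 6 myosin heavy chains (dFLEx 170019, 170024 and 170025 against KP 3800 and 3802). Myh3 made up 2.46, 0.653 and 1.39% against 27.6 and 30.3%, and together with Myh8 2.90, 0.800 and 2.08% against 28.3 and 32.4%. The developmental motors were thus a far smaller part of the family in every dFLEx tumor than in either KP tumor (exact two-sided permutation test over tumors, p = 0.2 for Myh3 and for Myh4, the smallest that 3 against 2 tumors can give). Per kilobase, the adult fast motors together still made the larger part in KP tumors, at 69.0% and 67.3%.

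Actin forms the thin filament. Acta1, its adult skeletal form (chr8:124618508-124621490) and the contractile gene with the highest summed CPM over the tumors, was counted at 3010.1, 10349.8 and 3013 CPM in dFLEx 170019, 170024 and 170025, against 532 and 1402 CPM in KP 3800 and 3802, with a log2 fold change of 2.50 (adjusted p = 0.311, SE 0.83) in edgeR. Actc1, the cardiac form that embryonic muscle also uses (chr2:113877763-113884029), was counted at 3.98, 40.5 and 29.8 CPM in dFLEx 170019, 170024 and 170025, against 112 and 145 CPM in KP 3800 and 3802, with a log2 fold change of -2.37 (adjusted p = 0.381, SE 0.88) in edgeR. The groups overlapped for neither gene, and the directions were opposite. Actc1 made up 0.125, 0.370 and 0.929% against 16.6 and 8.95% of the 2 actins per kilobase (same order of tumors, exact permutation p = 0.2).

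Myosin light chains clasp the neck of the motor. The fast essential chain Myl1 had the highest log2 fold change of the 44 genes, 4.27 (adjusted p = 0.161, SE 1.01) in edgeR, with 312, 2500.3 and 788 CPM in dFLEx 170019, 170024 and 170025, against 60.6 and 64.2 CPM in KP 3800 and 3802. Embryonic Myl4 had the lowest, -2.59 (adjusted p = 0.393, SE 0.98) in edgeR, but its levels were 89.6, 107 and 24.5 CPM against 85.1 and 804 CPM in the same order. The Myl4 difference rests on KP 3802: its level in KP 3800 was inside the dFLEx range, and the log2 fold change without KP 3802 was -0.19. As a share of the essential chains per kilobase, however, Myl4 was separated, at 9.22, 1.78 and 1.36% against 36.9 and 81.5%, and Myl1 took most of the family in every tumor but KP 3802, at 71.8, 93.2 and 97.7% against 58.8 and 14.6%.

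Among the regulatory light chains, fast Mylpf was at 1928, 7227 and 1028 CPM against 139 and 851 CPM, a log2 fold change of 2.78 (adjusted p = 0.425, SE 1.12) in edgeR. Per kilobase it made up at least 95.2% of its family in every tumor. The slow forms, regulatory Myl2 and essential Myl3, had the highest log2 fold changes of the slow class, 3.36 (adjusted p = 0.365, SE 1.21) and 2.80 (adjusted p = 0.477, SE 1.22) in edgeR. Myl2 was at 178, 208 and 9.80 CPM against 10.4 and 15.4 CPM. Myl3 was at 81.4, 134 and 7.60 CPM against 4.33 and 17.1 CPM. For both genes the high values were those of dFLEx 170019 and 170024, and dFLEx 170025 was just below or within the range of the KP tumors.

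Troponin is the calcium switch of the thin filament, with a T subunit that holds tropomyosin, an inhibitory I subunit and a calcium-binding C subunit. Fast Tnnt3 was counted at 1772, 7148 and 1673 CPM in dFLEx 170019, 170024 and 170025, against 172 and 983 CPM in KP 3800 and 3802, a log2 fold change of 2.61 (adjusted p = 0.413, SE 1.02) in edgeR. Cardiac and embryonic Tnnt2 was at 25.3, 46.3 and 18.3 CPM against 141 and 177 CPM, lower in every dFLEx tumor than in either KP tumor, with a log2 fold change of -2.41 (adjusted p = 0.185, SE 0.61) in edgeR. Slow Tnnt1, at 81.8, 139 and 14.9 CPM against 27.7 and 75.6 CPM, overlapped between groups. Per kilobase, Tnnt2 made up 0.281, 0.130 and 0.221% against 13.1 and 3.36% of troponin T and Tnnt3 96.5, 98.5 and 99.1% against 77.9 and 91.6%.

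Fast Tnni2 was at 1985, 5494 and 905 CPM against 105 and 981 CPM. Slow Tnni1, which developing muscle also uses, was at 187, 125 and 15.9 CPM against 133 and 525 CPM. Both overlapped between groups when taken alone, with log2 fold changes of 2.36 (adjusted p = 0.543, SE 1.12) and -1.59 (adjusted p = 0.721, SE 0.98) in edgeR. Set against each other, they separated the genotypes: Tnni1 made up 3.77, 0.940 and 0.728% against 34.4 and 18.2% of troponin I per kilobase (exact permutation p = 0.2). Tnni1 had the lowest log2 fold change of the slow class, but without KP 3802, which has 1 library, it was -0.26 and Atp2a2 was lower.

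Slow and cardiac Tnnc1 was at 411, 248 and 21.2 CPM against 103 and 786 CPM, and the groups overlapped over a wide range. Fast Tnnc2 was nearly uncounted, at 0.846, 4.47 and 0.668 CPM against 0.0403 and 0.772 CPM. Its log2 fold change was 2.34 (adjusted p = 0.738, SE 1.49) in edgeR. The other fast troponins, by contrast, were among the contractile genes with the most counts. Of the exonic bases of Tnnc2 74% are shared with Ube2c on the opposite strand, and the authors' counting ignored strand and left out reads over 2 genes. The shares within troponin C were therefore left out. Of the 44 genes, 25 shared no exonic base with another gene, and Mb (31.9%), Atp2a1 (21.9%) and Ckm (21.4%) were the others above 20%.

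Tropomyosin lies along actin and moves with troponin. Tpm1 and Tpm2, used in most fibres, had log2 fold changes of 1.53 and 1.52. Tpm1 was at 1564, 6105 and 1259 CPM against 1294 and 774 CPM, and the groups overlapped. Tpm2 was at 1200.1, 2346 and 926 CPM against 365 and 672 CPM, and the groups were separated. In KP 3800 alone Tpm1 stood above Acta1 (532 CPM), and the cells it came from were not tested. Slow Tpm3, which non-muscle cells also express, was at 279.8, 327 and 432 CPM against 757 and 398 CPM with a log2 fold change of -0.74 (adjusted p = 0.805, SE 0.55) in edgeR. Its share of tropomyosin per kilobase was 6.57, 2.98 and 12.2% against 27.7 and 15.7%. Of the thick-filament binding proteins, fast Mybpc2 was at 109, 626 and 394 CPM against 47.9 and 37.3 CPM. Slow Mybpc1 was at 104, 224 and 171 CPM against 27.7 and 35.3 CPM. Both were separated and both were higher in dFLEx tumors, with log2 fold changes of 3.14 (adjusted p = 0.208, SE 0.85) and 2.40 (adjusted p = 0.199, SE 0.63) in edgeR, and their relative shares overlapped. Mybpc1 was the only slow gene whose groups did not overlap.

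The Z-disc anchors thin filaments of neighbouring sarcomeres. Fast α-actinin Actn3 was at 421, 1756 and 849 CPM against 142 and 206 CPM. Actn2, present in all fibres, was at 51.4, 172 and 82.0 CPM against 30.2 and 38.8 CPM. The groups overlapped for neither as scaled by TMM, but under library totals they overlapped for Actn2. Actn2 made up 8.54, 6.95 and 6.88% against 14.01 and 12.6% of the 2 α-actinins per kilobase, lower in each dFLEx tumor than in either KP tumor although its own level was higher. Myot (myotilin) had the highest log2 fold change of the shared sarcomere class, 3.05 (adjusted p = 0.192, SE 0.78) in edgeR, at 30.8, 122 and 74.7 CPM in dFLEx 170019, 170024 and 170025, against 9.97 and 8.33 CPM in KP 3800 and 3802. The fast-fibre Z-disc protein Myoz1 was at 179, 626 and 142 CPM against 13.96 and 55.1 CPM, with a log2 fold change of 3.19 (adjusted p = 0.272, SE 0.99) in edgeR. Ldb3, Tcap, Xirp1 and Xirp2, further Z-disc and actin-binding proteins, had log2 fold changes from 1.14 (Xirp1) to 2.82 (Ldb3), and Ldb3 and Xirp2 were separated.

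The giant filament proteins titin and nebulin did not follow. Ttn, the molecular spring, was at 47.0, 261 and 188 CPM in dFLEx 170019, 170024 and 170025, against 239 and 60.1 CPM in KP 3800 and 3802, with the lowest log2 fold change of its class, 0.15 (adjusted p = 0.984, SE 0.87) in edgeR. Neb, which runs along the thin filament, was at 24.5, 154 and 206 CPM against 131 and 22.1 CPM, a log2 fold change of 0.75. For Ttn, KP 3800 lay between dFLEx 170025 and 170024, and for Neb it lay below both of them. In both genes KP 3802 and dFLEx 170019 were low. The sign for Ttn turned under scaling by library totals (-0.056).

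Length moved with these differences. Between the KP tumors, the log2 difference of 3802 from 3800 had a Spearman correlation of -0.71 with exonic length across the 44 genes (-0.36 across 15274 genes whose mean reached 1 CPM). These are correlations across genes, which share 1 tumor on each side and are not independent replicates. The 28 contractile genes under 5 kb had a median difference of 1.42 and the 16 longer ones of -0.59. The differences of dFLEx 170019 from 170025 (-0.60, and -0.54 across all 15274 genes) and of 170024 from 170025 (-0.70, and -0.51 across all) also ran down with length. That of 170019 from 170024 did so weakly in the 44 genes (-0.21, and -0.37 across all), and the fitted log2 fold changes did so to a lesser degree (-0.38, with medians of 2.53 under 5 kb and 0.94 above). The part of transcript length or RNA quality in the results was not tested. A tumor-wise trend with length and GC content was then removed, a step chosen after seeing the data. The median over the 44 genes was then 1.88, beside -0.36 over all genes. At an unadjusted p under 0.05 in edgeR, 24 contractile genes passed with this step and 24 without it. Over all 24743 genes, 3275 passed with it and 2617 without it.

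**Figure D3:**
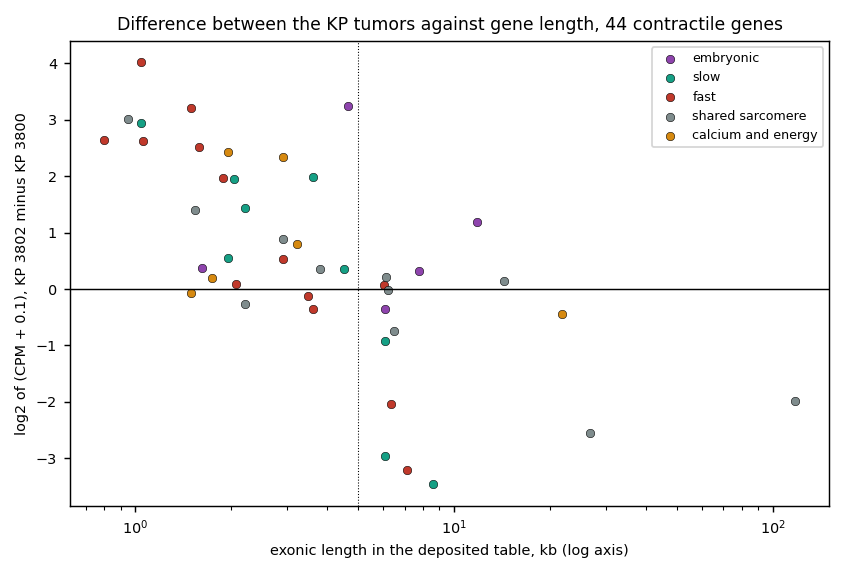
Each point is 1 of the 44 contractile genes, with its exonic length on a log axis and the log2 difference between KP 3802 and KP 3800 (0.1 CPM added to each). Short genes lie mostly above 0 and genes over 5 kb (dotted line) mostly below, with Neb, Atp2a2, Myh2 and Myh7 lowest.

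Calcium handling sets the speed of relaxation. The fast calcium pump Atp2a1 (SERCA1) had the lowest adjusted p of the 44 genes, with a log2 fold change of 2.96 (adjusted p = 0.160, SE 0.70) in edgeR and levels of 506, 1619.9 and 1226 CPM in dFLEx 170019, 170024 and 170025, against 149.7 and 137 CPM in KP 3800 and 3802. Slow Atp2a2 (SERCA2), also used outside muscle, was at 35.3, 70.0 and 186 CPM against 296 and 38.0 CPM and overlapped. Its share of the 2 pumps per kilobase was 3.84, 2.41 and 7.96% against 53.0 and 13.7%, and the 2 KP tumors were themselves far apart in it. The calcium buffer Pvalb was at 1899, 5594 and 659 CPM against 48.2 and 788 CPM, and KP 3802 stood above dFLEx 170025. Casq1, which stores calcium in the reticulum, and Ryr1, the channel that releases it, had log2 fold changes of 2.83 and 2.10 and were both separated under TMM. However, Ryr1 in dFLEx 170019 (61.3 CPM) was barely above KP 3800 (58.8 CPM), and under library totals it was below.

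All 4 energy genes were separated on tumor sums scaled by TMM, each higher in dFLEx tumors. Eno3 was not separated with TMM set per library, at 377 and 385 CPM in dFLEx 170025 against 494 CPM in KP 3802. Pygm, the glycogen phosphorylase of muscle, had the highest log2 fold change of the calcium and energy class, 3.18 (adjusted p = 0.217, SE 0.88) in edgeR, at 177, 999 and 423 CPM in dFLEx 170019, 170024 and 170025, against 43.1 and 74.9 CPM in KP 3800 and 3802. Eno3, the muscle enolase, had the lowest, 1.07 (adjusted p = 0.762, SE 0.72) in edgeR, at 497, 1555 and 424 CPM against 365 and 419.5 CPM. Creatine kinase Ckm was at 657, 2219 and 758 CPM against 69.5 and 351 CPM. The oxygen store Mb was at 179.7, 461 and 91.9 CPM against 44.3 and 42.0 CPM.

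Summed per kilobase over all 44 genes, fast genes made up 56.0, 63.0 and 55.3% against 26.9 and 47.2% of the contractile total (dFLEx 170019, 170024 and 170025 against KP 3800 and 3802). Embryonic genes made up 0.223, 0.156 and 0.376% against 6.20 and 4.68% and slow genes 5.76, 1.66 and 2.09% against 16.5 and 15.9%. The slow sum includes Tnnc1, while its fast partner Tnnc2 was nearly uncounted. In CPM per kilobase Tnnc1 made up 394 of 690, 238 of 624 and 20.4 of 180 of the slow sum in the dFLEx tumors. In the KP tumors it made up 98.6 of 337 and 755 of 1031. The embryonic and the slow shares were lower in every dFLEx tumor than in either KP tumor, and the fast share was higher. Over the isoform families other than troponin C the same held for Myh3, Actc1, Tnnt2, Tnnt1, Tnni1, Myl4, Atp2a2, Actn2 and Tpm3, whose shares were lower in each dFLEx tumor, and the shares of Myh1, Myh2, Myh7, Myh8, Mylpf, Myl2, Myl3, Mybpc1, Mybpc2, Tpm1 and Tpm2 overlapped. At 3 against 2 tumors no single share could reach an exact p below 0.2.

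**Figure D4:**
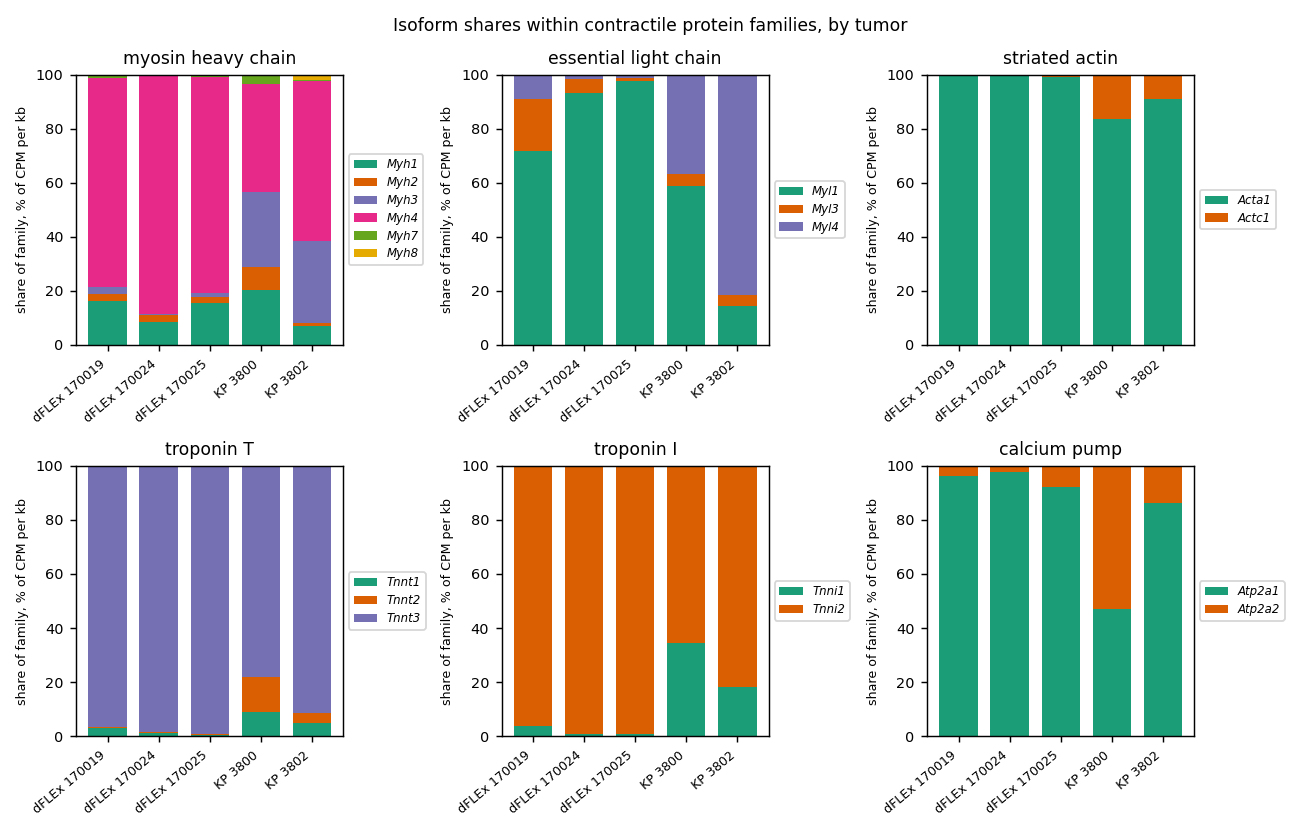
Stacked bars give each isoform's share of its family, in percent of CPM per kb of exon, in each of the 5 tumors for 6 families. In the 3 dFLEx bars 1 adult fast or skeletal isoform fills at least 71.8% of each family, and in the KP bars Myh3, Myl4, Actc1, Tnnt2, Tnni1 and Atp2a2 take larger parts than in any dFLEx bar.

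Dispersion among dFLEx tumors was large. Tumor 170024 held 66203 CPM of contractile transcripts, against 19858 in 170019 and 18956 in 170025, while the KP tumors held 6363 and 11852. The excess of 170024 lay in the fast, the shared sarcomere and the calcium and energy genes: the fast sum was 9444, 36242 and 9513 CPM against 1198 and 4320.0 CPM (same order of tumors) and the shared sarcomere sum 7206, 22009 and 6356 CPM against 2728 and 3398 CPM. The calcium and energy sum was 1716, 6237 and 2099 CPM against 594 and 1006 CPM. The slow sum showed little excess, at 1362, 1486 and 864 CPM against 1376 and 1891 CPM, and the embryonic sum was 130.2, 228 and 124 CPM against 467 and 1236 CPM. Without 170024 the median over the 44 genes was 1.5, and without KP 3802 the median of the fast genes was 4.32 instead of 2.7. The slow median took the opposite sign when either KP tumor was left out (1.53 without 3800, 1.16 without 3802).

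Other muscle genes were read from 3 further lists, and none of their genes passed an adjusted p of 0.05 in edgeR over tumors. Of 27 further sarcomere and triad genes (the triad couples the surface membrane to calcium release), 25 were higher in dFLEx tumors and 2 lower, at a median log2 fold change of 1.73, 12 separated above and 15 overlapping, 9 higher at an unadjusted p under 0.05 and 4 called higher by DESeq2. Over all genes these shares were 13.7% separated above, 5.65% at the unadjusted p and 3.55% by DESeq2. The highest were Myoz3, a Z-disc protein (3.04), and Nrap, which acts in myofibril assembly (2.65). The lowest were the calcium channel subunit Cacng1 (-2.25) and Klhl40, a stabiliser of thin-filament proteins (-0.73). Both of the latter rest on KP 3802, where Cacng1 was at 1007 CPM, against 18.9 CPM in KP 3800 and 40.7 to 206 CPM in dFLEx tumors, and without that tumor the log2 fold changes were 2.53 for Cacng1 and 2.36 for Klhl40.

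Genes of the neuromuscular endplate and the myogenic regulators were mostly lower in dFLEx tumors. Of 8 endplate genes 3 were higher and 5 lower, with 3 separated above and 4 below, and of 9 myogenic regulators 1 was higher and 8 lower, with 1 separated above and 6 below. At an unadjusted p under 0.05 there were 2 higher and 5 lower endplate genes and 1 higher and 6 lower regulators, and DESeq2 called 1 higher and 4 lower endplate genes and 5 lower regulators. The shares over all genes were 13.7% separated above and 11.7% below, 5.65% higher and 4.93% lower at the unadjusted p, and 3.55% higher and 2.7% lower by DESeq2. Chrng, the fetal subunit of the acetylcholine receptor, was at 1.42, 3.45 and 2.07 CPM in dFLEx 170019, 170024 and 170025, against 40.8 and 86.4 CPM in KP 3800 and 3802, a log2 fold change of -4.78 (adjusted p = 0.0664, SE 0.71) in edgeR. Chrne, the adult subunit that replaces it, was at 1.34, 2.72 and 0.718 CPM against 0.175 and 0.488 CPM (2.29), so it was low everywhere and separated in the opposite direction. Colq, which anchors acetylcholinesterase, was at 39.7, 31.1 and 99.5 CPM against 2.83 and 2.07 CPM (4.53). The receptor subunit Chrnd was at 0.647, 3.68 and 2.73 CPM against 54.8 and 23.6 CPM (-4.05).

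Of the myogenic regulators, Myf5, a determination factor of myoblasts, was at 0.174, 0.798 and 0.3905 CPM in dFLEx 170019, 170024 and 170025, against 50.04 and 22.2 CPM in KP 3800 and 3802, a log2 fold change of -6.30 (adjusted p = 0.0517, SE 0.88) in edgeR, just above the threshold. Myogenin (Myog), needed for differentiation, was at 6.82, 16.8 and 6.88 CPM against 112 and 254 CPM, a log2 fold change of -4.17 (adjusted p = 0.0840, SE 0.72) in edgeR. The exception was Myf6, the regulator that persists in adult fibres, at 15.3, 64.9 and 21.5 CPM against 2.08 and 11.3 CPM, a log2 fold change of 2.34 (adjusted p = 0.467, SE 1.01) in edgeR. Pax7, the marker of satellite cells, was at 0.771, 1.65 and 4.12 CPM against 7.52 and 2.93 CPM (-1.26) and overlapped. DESeq2 on tumor sums called Myf5, Myog, Chrng and Chrnd lower and Colq higher.

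**Figure D5:**
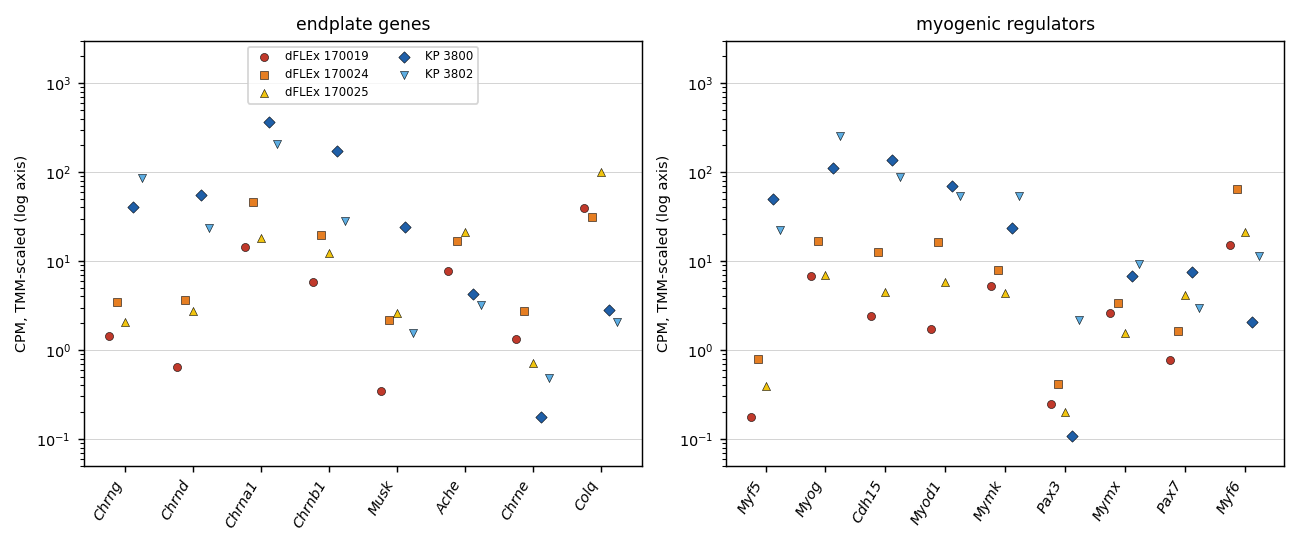
Levels of 8 endplate genes (left) and 9 myogenic regulators (right) in each tumor, in CPM scaled by TMM on a log axis, with genes ordered by log2 fold change from lowest to highest. The KP symbols stand above all dFLEx symbols for Chrng, Chrnd, Chrna1, Chrnb1, Myf5, Myog, Cdh15, Myod1, Mymk and Mymx, and below them for Ache, Chrne, Colq and Myf6.

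Markers of other cell types were also unequal between the genotypes, although none passed an adjusted p of 0.05 in edgeR over tumors, and their part in the contractile results was not tested. All 6 adipocyte markers were higher in dFLEx tumors, 4 of them separated, with a summed level of 326, 264 and 402 CPM against 8.93 and 189 CPM (dFLEx 170019, 170024 and 170025 against KP 3800 and 3802). Of 6 nerve sheath markers all were higher and 3 separated (83.5, 132 and 115 CPM against 81.1 and 58.2 CPM), and of 5 tendon markers 3 were higher and 2 separated (444, 632 and 430.3 CPM against 151 and 189 CPM). All 6 endothelial markers were higher and 1 separated (179.9, 288 and 514 CPM against 158 and 77.8 CPM), while 4 of 6 macrophage markers were lower and 3 separated below (142, 205 and 289 CPM against 376 and 416 CPM). The log2 fold changes of the nerve sheath marker Pmp22 (0.00064) and the endothelial marker Vwf (0.083) were smaller than the median shift between TMM and library totals (0.304). Their signs are therefore not firm. Beside these counts, 13.7% of all genes were separated above and 11.7% below. DESeq2 on tumor sums called 1 nerve sheath, 1 tendon, 1 endothelial and 1 cardiac marker higher (3.55% of all genes), and the smooth muscle list is given further below. None of these markers was at 0 counts in all tumors. The 7 cardiac markers summed to 14.8, 22.2 and 5.98 CPM against 1.53 and 14.1 CPM, with Myl7 at 0 in both KP tumors and at most 0.0498 CPM in dFLEx tumors. Of the 5 that were tested, 2 were higher and 3 lower, at a median log2 fold change of -0.51, with 2 separated above. Ryr2 was among the lower (-2.67), at 8.70 CPM in KP 3802 and 0.134 CPM in KP 3800. Most of the cardiac sum in dFLEx tumors was Nppb, a natriuretic peptide, at 10.9, 18.2 and 4.04 CPM against 0.618 and 1.26 CPM and separated above (log2 fold change 3.57), and in dFLEx 170019 its CPM was higher than that of Actc1.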

How the data were processed

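Bulk RNA-seq libraries (paired-end, depleted of ribosomal RNA, 2 per tumor) were described for 5 tumors. Per the labels and methods, the authors trimmed reads with Trimmomatic (0.39), aligned them with STAR (2.7.10a) to GRCm39 plus a contig of the construct, and deposited raw counts per gene from featureCounts (2.0.3), with mates counted as separate reads, strand ignored, and reads with several alignments or over several genes left out. The table has columns for 9 libraries of the 10 in the labels. The other library of KP 3802 was not analysed here. The members and gene lists were chosen with earlier results of these data known. All 44 members are accounted for. Values in every tumor are given for isoform members, for the highest and lowest log2 fold change of a class and for the highest summed level, and of the other muscle lists the 2 highest and 2 lowest are named.

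Gene symbols came from GENCODE M39 by Ensembl identifier (98.7% of features). Counts of a tumor's libraries were summed, filtered with filterByExpr, scaled by TMM and tested with edgeR (4.0.16, glmQLFit and glmQLFTest), and p-values were adjusted by the Benjamini-Hochberg method across every gene tested, with 0.05 as the threshold. The SE is the size of the log2 fold change over the square root of F. CPM are TMM-scaled, and levels per kilobase use the table's exonic length. Single shares were compared by exact two-sided permutation over tumors in SciPy (1.17.1), where 10 splits give a smallest p of 0.2. The code was tested on simulated counts. Between 20503474 and 46302223 counts per library, 3 counts, the limit for a gene with none, equal 0.0648 to 0.146 CPM. The intervals hold counting error alone and take each mate as a separate read, although reads are not separate molecules. Alternatives were DESeq2 (1.42.0) on tumor sums, libraries as independent samples, the duplicate number as a block, 1 library per tumor, library totals, DESeq2 size factors, no filter, counts not divided by length, each tumor left out, and, added after seeing the data, removal of trends with GC content and length (loess, span 0.3).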

Additional observations from a re-analysis of the deposited data

How the results depend on the processing

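The number of contractile genes called at an adjusted p of 0.05 depends on the unit and the tool. It was 0 in edgeR over tumors (24 at an unadjusted p under 0.05), also with the first library of each tumor, library totals, DESeq2 size factors, the GC and length trend removed (chosen after seeing the data) and each tumor left out. It was 19 with the 9 libraries as independent samples, 13 with the duplicate number as a replicate block on those libraries, 14 with DESeq2 on tumor sums and 11 with no filter on low counts; apart from duplicates being counted as replicates in the first 2, the cause was not tested. Duplicates come from the same RNA, and the number pairs no tumors.

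With each tumor left out, the median log2 fold change ran from 1.5 to 2.46 over the 44 genes, from 1.62 to 4.32 over fast and from -0.58 to 1.53 over slow genes, where it turned positive without KP 3800 (1.53) and without KP 3802 (1.16). The dFLEx minus KP difference in isoform share, in percentage points per kilobase, ran from -30.5 to -26.3 for Myh3 and Myh8, from -16.1 to -8.47 for Actc1, from -12.8 to -3.15 for Tnnt2, from -77.4 to -32.8 for Myl4, from -32.6 to -16.4 for Tnni1, from -48.3 to -8.92 for Atp2a2 and from -1.64 to 1.31 for Myl2, which turned positive without dFLEx 170024 (0.21), dFLEx 170025 (0.72) and KP 3800 (1.31). Without division by length the difference was -26.8 for Tnnt2, -41.1 for Tnni1 and -7.18 for Actn2.

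Of the 44 genes, 37 kept the sign of the log2 fold change under every alternative run. With a tumor left out the value ran from -0.52 to 1.18 for Myh8 (negative without dFLEx 170025), from -1.29 to 2.40 for Myh7 (positive without KP 3800), from -0.087 to 1.52 for Tnnt1 (negative without dFLEx 170024), from -1.81 to 1.16 for Tnnc1 (positive without KP 3802), from -1.66 to 1.53 for Atp2a2 (positive without KP 3800), from -0.52 to 1.63 for Ttn (-0.34 without dFLEx 170024) and from -0.013 to 2.71 for Neb (-0.013 without KP 3802). Cacng1 ran from -3.18 to 2.53 and Klhl40 from -1.49 to 2.36. Myh8 was at -0.081 with the GC and length trend removed, and Ttn at -0.11 with libraries as independent samples, -0.11 with the replicate block and -0.056 with library totals. The cause of these reversals was not tested. With 3 tumors against 2, and each tumor left out leaving 2 or 1 in a group, where a lone KP tumor is assumed to vary like the dFLEx tumors, a missed threshold does not show that levels were alike.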

Other observations

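The 7 smooth muscle markers, whose products form another contractile apparatus, showed no common direction, with 3 higher and 4 lower in dFLEx tumors and a summed level of 202, 161 and 347 CPM against 379 and 377 CPM (dFLEx 170019, 170024 and 170025 against KP 3800 and 3802). Of these, 2 were separated above and 2 below (13.7% and 11.7% of all genes), and DESeq2 on tumor sums called 1 higher (3.55% of all genes). Actg2, the enteric smooth muscle actin, was at 17.0, 9.33 and 26.2 CPM against 0.349 and 0.610 CPM, a log2 fold change of 5.21 (adjusted p = 0.0797, SE 0.87) in edgeR. Acta2, the vascular smooth muscle actin, was at 144, 87.6 and 252 CPM against 306 and 312 CPM, with every dFLEx tumor below both KP tumors and a log2 fold change of -0.94 (adjusted p = 0.739, SE 0.60) in edgeR. These 2 genes were chosen after their values were seen.

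The fetal and adult acetylcholine receptor subunits were also set against each other, a ratio chosen after their values were seen. Chrng made up 30.0, 34.0 and 53.9% against 99.0 and 98.6% of Chrng and Chrne per kilobase in the same order of tumors. The levels behind the dFLEx shares were low, at most 3.45 CPM for Chrng and 2.72 CPM for Chrne.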
